A study of Mus musculus with 6 samples.

Results

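The interferon-stimulated genes described here are 36 named mouse genes that type I or type II interferon is known to raise, measured in cultured dermal fibroblasts treated with IL-1. A member was taken where a non-control probe of the array carried its name in the scanner files, and the brightest probe stood for the gene. Of the 36 genes, 31 had a probe of that name (55 probes). A probe was kept where, in at least 1 of the 4 conditions, all arrays showed it well above background, and 24 members had such a probe, of 22209 genes measured in all. The fibroblasts came from C57BL/6 mice and received 20 ng/ml IL-1 for 1, 2 or 4 h, or none (0 h). The labels do not say which form of IL-1 was used. On each of the 6 Agilent 2-colour arrays the RNA of 1 treatment time was set against untreated RNA, with the dyes swapped between the 2 arrays of a time point. These 2 arrays were averaged, so each time point is 1 sample and the mean response rests on 3 samples. The untreated RNA is the common reference, so a ratio leaves out its own spread, and nothing in the labels says whether the time points were separate cultures. The direction of each ratio rests on the dyes named in the labels. Adjusted p-values and standard errors (SE) rest on the spread between these 3 samples, which limma draws toward a value shared by all genes. They measure no spread between replicates of a time point.

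Interferons are secreted when a cell senses foreign nucleic acid. They bind receptors that activate JAK kinases, and these phosphorylate STAT proteins. With IRF9 the STAT proteins form a complex that binds the interferon-stimulated response element (ISRE), while interferon gamma acts through the gamma-activated sequence (GAS). The genes so raised block viral entry, degrade or modify viral RNA, sense nucleic acids and attack the vacuoles of intracellular microbes. IL-1 signals through MyD88 and NF-kB instead, and its best known targets in fibroblasts are chemokines and cytokines. Comparing treated with untreated cells for these 36 genes asks how far the interferon programme moved within 4 h of IL-1.

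The ISRE is the sequence feature most of these genes are known for, and the stretches that hold it upstream of some of them are shown first. The motif was searched as GAAA, any 2 bases and GAAA again, on both strands in the 250 bases before each start site of the RefSeq promoters (GRCm38.p6). Capitals mark the matches, each stretch is written 5′ to 3′ on the strand of its gene, and TTTC at both ends of a match means that the motif lies on the other strand. Matches that touch or overlap are written as 1 run of capitals. The first 6 genes shown are classical targets of type I interferon.
Ifit1 (chr19:34640773-34640825, plus strand): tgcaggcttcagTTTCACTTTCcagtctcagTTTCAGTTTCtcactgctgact
Ifit3 (chr19:34583361-34583394, plus strand): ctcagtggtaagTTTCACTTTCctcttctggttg
Ifit3 (chr19:34583395-34583428, plus strand): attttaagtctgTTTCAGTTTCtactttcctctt
Isg15 (chr4:156200863-156200908, minus strand): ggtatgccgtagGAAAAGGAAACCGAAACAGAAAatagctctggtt
Oas1a (chr5:120907526-120907557, minus strand): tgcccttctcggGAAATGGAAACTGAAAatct
Rsad2 (chr12:26456551-26456584, minus strand): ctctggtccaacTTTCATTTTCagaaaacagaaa
Stat2 (chr10:128270264-128270297, plus strand): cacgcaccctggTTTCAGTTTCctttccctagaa
Gbp2 and Gbp3, which encode guanylate-binding GTPases, are shown because they had the largest mean ratios of the genes listed, and Cxcl10, which is not a member, because it is an interferon target that IL-1 raised.
Gbp2 (chr3:142620592-142620625, plus strand): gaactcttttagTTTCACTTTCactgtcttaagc
Gbp3 (chr3:142559987-142560026, plus strand): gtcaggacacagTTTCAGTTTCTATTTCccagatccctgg
Cxcl10 (chr5:92349081-92349114, minus strand): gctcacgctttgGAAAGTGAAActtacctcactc
Of the 28 members with an entry in the promoter table, 14 held the ISRE letters, against 978 of 32851 promoters (2.98%) and 3.46% of genes. The GAS letters (TTC, any 3 bases, GAA) were found upstream of 6 of the 28 members and of 8.13% of genes, and a kB motif upstream of 7 members and of 8.23% of genes. At Bst2 an ISRE match overlapped a GAS match, and at Bst2 and Ifit2 a GAS match overlapped a kB match. A match is a description of the letters and not a binding site.

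Most of the interferon-stimulated genes moved little, as did most of all genes measured. At 1 h all 24 measured members had a log2 ratio of treated over untreated within 0.2 of 0, and at 2 h and 4 h 21 of 24 did, against 93.3%, 91.8% and 92.7% of all genes. The median ratio of the members was 0.0032 at 1 h, 0.048 at 2 h and 0.032 at 4 h, beside 0.0033, 0.0031 and 0.0027 over all genes. The highest value at any time was 0.44 for Gbp2 at 2 h, a 1.36-fold level, and the lowest was -0.19 for Ifit2 at 2 h. In bulk RNA fewer cells of a type and less RNA per cell cannot be told apart. Genes that IL-1 is known to induce through NF-kB moved on another scale in the same RNA. Cxcl1, a neutrophil-attracting chemokine, stood at 6.21, 5.49 and 4.84 at 1, 2 and 4 h on the log2 scale. Nfkbia, the NF-kB inhibitor that NF-kB itself induces, stood at 3.02, 2.65 and 1.87, the cytokine Il6 at 2.51, 2.96 and 2.73 and the adhesion molecule Icam1 at 2.34, 2.44 and 1.83.

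**Figure D1:**
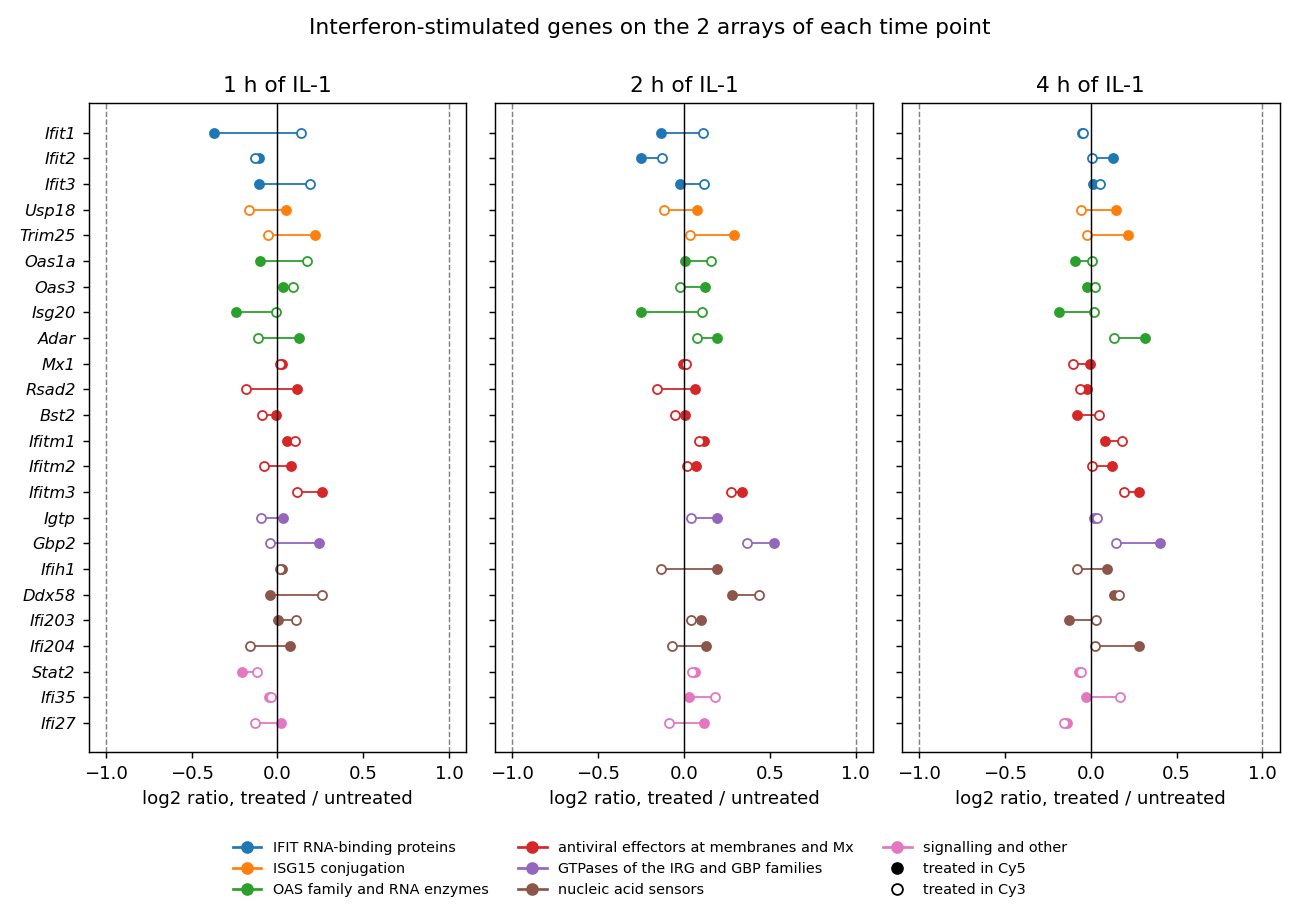
Log2 ratio of treated over untreated for each of the 24 measured members on the 2 arrays of each time point, with filled points for treated RNA in Cy5 and open points for treated RNA in Cy3, coloured by role. All single-array values lie between -0.37 and 0.52, inside the dashed lines at 2-fold.

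A member counted as past the size rule at a time point where its mean log2 ratio was at least 0.5, or at least 1, with the same sign on both arrays. This is a rule of size with no test, since each time point is 1 sample. No member passed 0.5 in either direction at 1, 2 or 4 h. Of all genes, 0.702% were higher and 0.113% lower by that rule at 1 h. At 2 h these shares were 0.743% and 0.203%, and at 4 h they were 0.639% and 0.225%. By the rule of 1 on the log2 scale 0.23%, 0.198% and 0.171% of genes were higher at 1, 2 and 4 h and 0.0135%, 0.0045% and 0% lower, again with no member among them. Between 1 h and 4 h no member passed 0.5, while 0.194% of genes rose past it and 0.333% fell. The count at 2 h depends on the background correction. With the scanner's own processed signals Gbp2 stood at 0.70 and Ddx58 at 0.66 at 2 h, so that 2 of 24 members passed 0.5, beside 1.83% of genes, and with a smaller normexp offset of 16 only Gbp2 did, at 0.56, beside 0.955%. No member reached 1 in any of the 15 alternative settings, in which the members' values at single times ran from -0.428 to 0.701. Not all of these could differ. The replicate block, the variance prior and leaving out a time point do not change single-time values, and the value table repeats the processed signals.

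The mean response over the 3 samples was tested against 0 with limma and adjusted over all 22209 genes. Trim25, Ifitm1, Ifitm3, Gbp2 and Ddx58 rose, which is 5 of 24 members (20.8%), where 10.5% of all genes were higher by the same test. Isg20 fell, 1 of 24 (4.17%), where 10.8% of all genes were lower. At an unadjusted p under 0.05 a seventh member, Adar, was added, and 34.7% of all genes lay under that p. The members that rose were higher by 1.08 to 1.21 fold on average. Ifitm1 and Ifitm3 were above 0 on all 6 arrays, where 10.8% of genes were, and no member was below 0 on all 6, where 9.79% of genes were. For comparison, the distance of each dye orientation from the mean of its time point had a median of 0.0721 and a maximum of 0.253 over the members. With median centring of the arrays and no loess 2 members rose and 4 fell, beside 5.06% and 25.8% of all genes. With an offset of 16, with the processed signals, or with the 2 h or the 4 h sample left out, 1 member was higher, Ifitm3 in each case, beside 7.33%, 3.38%, 2.13% and 8.59% of genes, and Isg20 lost its call with any of the 3 samples left out.

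**Figure D2:**
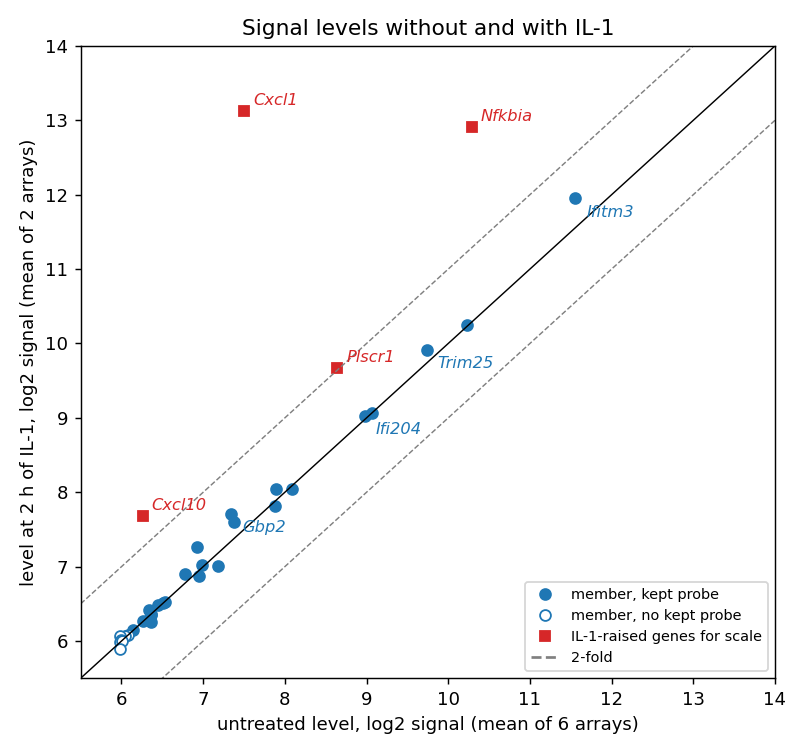
Log2 signal of each member in untreated RNA (mean of 6 arrays) against the signal at 2 h of IL-1 (mean of 2 arrays), with open points for the 7 members without a kept probe and squares for 4 IL-1-raised genes. The members lie along the diagonal inside the dashed 2-fold lines, and Cxcl10, Plscr1, Nfkbia and Cxcl1 lie above the upper line.

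The IFIT genes encode RNA-binding proteins that hold back translation of foreign RNA and are among the genes most sharply raised by type I interferon. None of the 3 passed the mean test. Ifit2 had the largest mean of the group, with log2 ratios of -0.11 and -0.13 for 1 h, -0.25 and -0.13 for 2 h and 0.13 and 0.010 for 4 h, given here and below first with treated RNA in Cy5 and then in Cy3. The 4 arrays of 1 h and 2 h were below 0 and the arrays of 4 h above it. The mean was -0.079 ± 0.050 (SE, n = 3), with an adjusted p of 0.33 by limma. Without the 4 h sample the mean was -0.154 and the adjusted p 0.0303. Ifit1 stood at -0.12, -0.012 and -0.049 at 1, 2 and 4 h, with -0.37 on one array of 1 h and 0.14 on the other, so its value at 1 h was smaller than the gap between its arrays. It was well above background on all untreated arrays and on 5 of the 6 treated ones. Ifit3 stood at 0.041, 0.047 and 0.034, and its second kept probe had a mean of -0.016.

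ISG15 is a ubiquitin-like protein joined to other proteins, TRIM25 is an E3 ligase for it that also ubiquitinates the RNA sensor RIG-I, and USP18 removes it and dampens the type I receptor. Trim25 rose. Its log2 ratios were 0.22 and -0.056 for 1 h, 0.29 and 0.037 for 2 h and 0.22 and -0.021 for 4 h. All 3 arrays with treated RNA in Cy5 lay above all 3 with it in Cy3, and the latter lay near 0. The mean was 0.11 ± 0.026 (SE, n = 3), a 1.08-fold level, with an adjusted p of 0.0292 by limma. Trim25 was called under 7 of the 15 alternatives. A second kept Trim25 probe had a mean of -0.0013, and with the Cy3 arrays alone the first probe had a mean of -0.013. Usp18 stood at -0.059, -0.023 and 0.046 at 1, 2 and 4 h. It was well above background on 3 of 6 untreated arrays and passed the filter only through 2 h and 4 h. Isg15 itself was found under an older name, described with the other such genes below.

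The OAS enzymes make oligoadenylates that switch on RNase L, ISG20 is an exonuclease of single-stranded RNA, and ADAR deaminates adenosine in RNA duplexes. Of 9 listed genes of this group 8 had a probe of that name and 4 a kept probe. Isg20 fell, with log2 ratios of -0.24 and -0.0075 for 1 h, -0.25 and 0.10 for 2 h and -0.18 and 0.021 for 4 h. The arrays with treated RNA in Cy5 were all below 0, while those with it in Cy3 were near or above 0, so the orientations do not overlap. Its mean was -0.092 ± 0.023 (SE, n = 3), with an adjusted p of 0.0396 by limma, and the second Isg20 probe had a mean of 0.029. With the Cy3 arrays alone the mean of the first probe was 0.039. Adar had log2 ratios of 0.13 and -0.11 for 1 h, 0.19 and 0.077 for 2 h and 0.32 and 0.14 for 4 h. In both orientations the ratio of 4 h was above that of 2 h, and that of 2 h above that of 1 h, with both arrays of 2 h and 4 h above 0. Its mean of 0.12 ± 0.043 (SE, n = 3) had an adjusted p of 0.104 by limma, and its slope of 0.11 per doubling of time one of 0.224, so neither passed. Taking the 6 arrays unaveraged with the dye orientation as a replicate block, which counts both arrays of a time point as separate units, gave its mean an adjusted p of 0.0388 by limma. Without the 1 h sample the adjusted p was 0.0189 for a mean of 0.180. A second kept Adar probe stood at 0.0097, 0.092 and 0.072, and with treated RNA in Cy3 its ratio at 4 h, 0.020, was below those at 1 h and 2 h, 0.094 and 0.12. Oas1a, at 0.035, 0.082 and -0.040, and Oas3, at 0.062, 0.049 and 0.0018, were well above background on all 6 arrays in both channels. The C57BL/6 strain is known to carry a truncated Oas1b.

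At membranes, IFITM proteins restrict the entry of enveloped viruses, tetherin (Bst2) holds budding virus at the cell surface, and viperin (Rsad2) makes a nucleotide that ends viral RNA chains. Ifitm3 rose, and of the members it was the one called under most settings, 14 of the 15 compared. Its log2 ratios were 0.26 and 0.11 for 1 h, 0.34 and 0.27 for 2 h and 0.28 and 0.19 for 4 h. All 6 arrays were above 0, and in each orientation the ratio of 2 h was the highest. The mean was 0.24 ± 0.029 (SE, n = 3), a 1.18-fold level, with an adjusted p of 0.00516 by limma. Median centring of the arrays, with no loess, took its mean to 0.086 and its adjusted p to 0.0798, which is above the threshold. Ifitm1 rose, with log2 ratios of 0.058 and 0.10 for 1 h, 0.12 and 0.088 for 2 h and 0.082 and 0.18 for 4 h. They were all above 0, and the highest was at 4 h with treated RNA in Cy3. The mean of 0.11 ± 0.023 (SE, n = 3) had an adjusted p of 0.0269 by limma, which the alternatives moved between 0.00639 and 0.313. Ifitm1 was called under 7 of the 15 alternatives. Ifitm2, a neighbour of the same family, stood at 0.00095, 0.041 and 0.066, Bst2 at -0.048, -0.022 and -0.016, Rsad2 at -0.033, -0.047 and -0.043 and Mx1 at 0.022, 0.0018 and -0.054, and none of these passed the test. Mx1 encodes a dynamin-like antiviral GTPase that C57BL/6 is known to carry as a defective allele.

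Guanylate-binding proteins and IRG GTPases coat the vacuoles of intracellular bacteria and parasites and answer mainly to interferon gamma. Gbp2 rose and had the largest mean of the 24 measured members. Its log2 ratios were 0.24 and -0.041 for 1 h, 0.52 and 0.37 for 2 h and 0.40 and 0.15 for 4 h. In each orientation the ratio of 2 h was the highest and that of 1 h the lowest, and 1 array of 1 h was below 0. The mean was 0.27 ± 0.062 (SE, n = 3), a 1.21-fold level, with an adjusted p of 0.0297 by limma. It was called under 9 of the 15 alternatives, and its adjusted p was lost, among others, with the 2 h or the 4 h sample left out and with the processed signals. Igtp, an IRG GTPase, stood at -0.033, 0.12 and 0.030 and did not pass. Gbp3, read through its accession, is given below and had similar values.

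The nucleic acid sensors on the list are the helicases RIG-I (Ddx58) and MDA5 (Ifih1), which detect viral RNA, and the DNA-binding proteins Ifi203 and Ifi204. Ddx58 rose, with log2 ratios of -0.045 and 0.26 for 1 h, 0.28 and 0.44 for 2 h and 0.14 and 0.17 for 4 h. The 2 h arrays were the highest in each orientation, and 1 array of 1 h was below 0. The mean was 0.21 ± 0.050 (SE, n = 3), a 1.15-fold level, with an adjusted p of 0.0363 by limma. The call held under 9 of the 15 alternatives. The adjusted p was 0.0626 with offset 16, 0.0737 with the processed signals, 0.104 without the 2 h sample and 0.0619 without the 4 h sample, and with the Cy5 arrays alone the mean was 0.122 and the adjusted p 0.139. Its 2 other kept probes had means of 0.26 and 0.051. Ifih1, the sister helicase, stood at 0.021, 0.031 and 0.0069, and Ifi203 at 0.055, 0.069 and -0.048. Ifi204 stood at -0.045, 0.029 and 0.15, higher at each later time, with a slope of 0.098 per doubling of time and an adjusted p of 0.281 by limma. A second Ifi204 probe had -0.10, -0.0085 and 0.10, and the last kept probe had 0.0030, -0.0038 and 0.010. Genes of the Ifi200, GBP, OAS and IFITM families have close relatives, and a probe may read more than 1 of them.

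Of the signalling and other members, Stat2, a subunit of the ISRE-binding complex, stood at -0.16, 0.054 and -0.062. Its arrays agreed in sign at each time, below 0 at 1 h and 4 h and above 0 at 2 h, and its mean did not pass the test, with an adjusted p of 0.407 by limma. Ifi35 stood at -0.043, 0.10 and 0.073. The probe named Ifi27 in the files had log2 ratios of 0.021 and -0.13 for 1 h, 0.12 and -0.085 for 2 h and -0.14 and -0.16 for 4 h, and both arrays of 4 h were below 0. Its mean was -0.062 ± 0.035 (SE, n = 3), with an adjusted p of 0.271 by limma, and its 2 other probes had means of -0.097 and -0.088. The RefSeq table gives its accession to the related gene Ifi27l2a. The gene RefSeq calls Ifi27 was read by a probe named D12Ertd647e, at -0.032, -0.050 and -0.097.

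**Figure D3:**
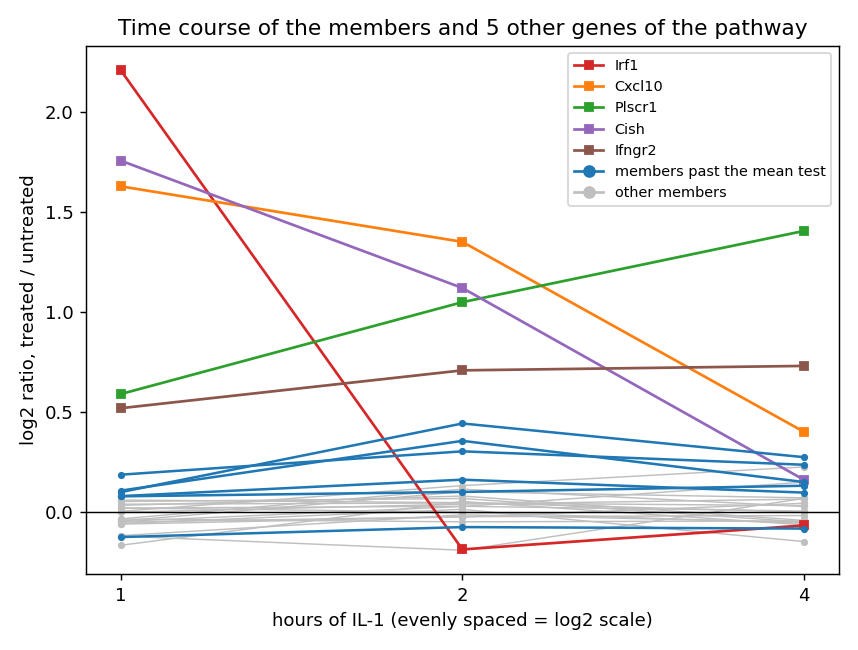
Log2 ratio of treated over untreated at 1, 2 and 4 h of IL-1 for the 24 measured members, blue where the mean response passed limma at an adjusted p of 0.05 and grey otherwise, with 5 other genes of the pathway as squares. The members stay between -0.19 and 0.44, while Irf1 reaches 2.21 at 1 h and Plscr1 1.41 at 4 h.

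No member passed the test of a time course. By limma's slope per doubling of time no member rose and no member fell at an adjusted p of 0.05, where 0.207% and 0.248% of all genes did. At an unadjusted p under 0.05 there were 2 members, Adar and Ifi204, and 10.4% of all genes. The slope has 1 residual degree of freedom, so its test leans on the variance that limma shares over all genes. The steepest slope of a member, 0.11 for Adar, did not pass.

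Of the 5 listed genes without a probe of that name, 4 were found through their RefSeq accession under an older name, a step added after the files had been seen. Gbp3, filed under the name Gbp4, had log2 ratios of 0.046 and 0.24 for 1 h, 0.23 and 0.52 for 2 h and 0.30 and 0.31 for 4 h. All 6 arrays were above 0 and the mean was 0.28 ± 0.045 (SE, n = 3), with an adjusted p of 0.0123 by limma. Isg15 stood at -0.081, -0.013 and -0.050 and its mean of -0.048 had an adjusted p of 0.224 by limma. Eif2ak2, which encodes the RNA-activated kinase PKR, stood at -0.0075, -0.016 and 0.016. Irgm1, a regulator of the other IRG GTPases, stood at -0.11, 0.14 and -0.26, with both arrays above 0 at 2 h and below 0 at 1 h and 4 h. Its second probe had -0.15, 0.12 and -0.21, so both probes moved in the same way, and the mean did not pass, at an adjusted p of 0.508 by limma. No probe was found here for Xaf1.

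For 7 members with a probe no probe was kept, namely Ifi44, Iigp1, Mx2, Oas1b, Oas2, Oasl1 and Oasl2. Some probes of members were not well above background on any array of one condition but were so on some of the other. For these only a lower bound on the difference can be given. The bound is the brighter mean against the lowest signal well above background, or the dim probe's own where that is higher. It does not limit how large the true difference was, and where it was negative on the log2 scale it gave no bound. The largest lower bound was 1.06-fold. That value came from an Oas2 probe that was well above background on 1 treated array, at 4 h, where its measured log2 ratio was 0.077, and the other Oas2 probe stood at -0.0091. Signal was low for much of the list, as 12 of 24 members (50%) had a mean log2 signal under 7, against 43.8% of all genes, and the offset of 50 added before the logarithm draws ratios of dim probes toward 0.

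**Figure D4:**
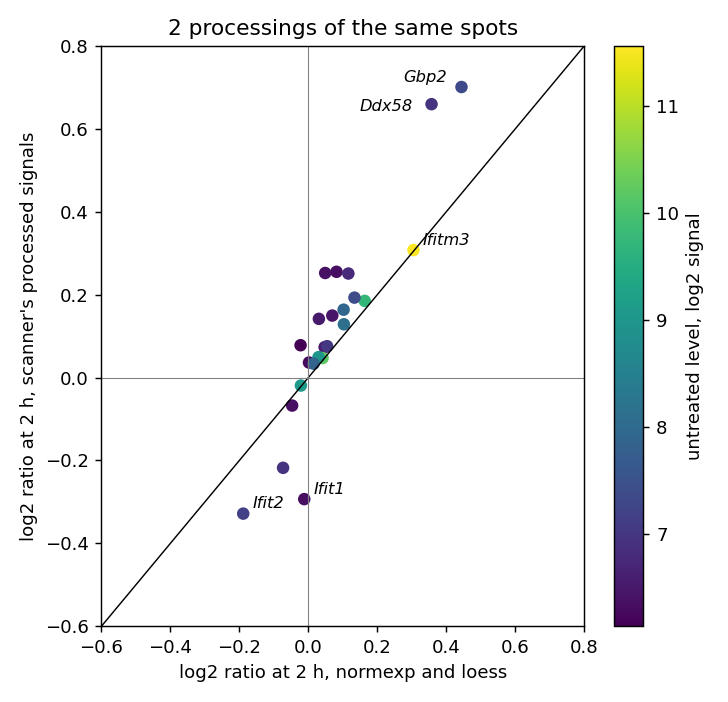
Log2 ratio at 2 h of each measured member after normexp and loess against the same spots in the scanner's processed signals, coloured by the untreated log2 signal. Gbp2 and Ddx58 stand at 0.44 and 0.36 on the horizontal axis and at 0.70 and 0.66 on the vertical axis.

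The members were also set apart by the ISRE letters, a feature the choice of probes did not use. The 11 measured members with an ISRE match had medians of 0.00090, 0.049 and -0.016 at 1, 2 and 4 h, and 1 of them, Gbp2, rose and none fell. The 9 measured members with a promoter entry and no match had medians of 0.021, 0.10 and 0.099, and 4 rose (Trim25, Ifitm1, Ifitm3 and Ddx58) and 1 fell (Isg20). Ifit1, Ifit3, Oas1a, Rsad2 and Stat2, whose stretches are printed above, did not pass the test. Among the genes found under an older name, Isg15 and Irgm1 also hold a match and did not pass. Gbp3, whose stretch is printed too, rose, with a mean of 0.28 and an adjusted p of 0.0123 by limma. Of the 6 measured members with a kB match, Ifitm3 rose and Isg20 fell. Of all genes 10.5% were higher and 10.8% lower by this test. The sets were not tested against each other.

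Upstream of the members in the pathway are the interferons and their receptors. Of 14 listed ligands 12 were on the array and 9 had a kept probe, of which none rose or fell by limma's test of the mean, and their medians were -0.014, -0.012 and -0.013 at 1, 2 and 4 h. Their kept probes had untreated log2 signals of 6.10 to 7.49. Ifnb1, the interferon that fibroblasts are best known to make, was well above background on 0 untreated and 1 treated array and had no kept probe. In the main processing the receptors did move. Of 6 receptor genes 5 rose and 0 fell, beside 10.5% and 10.8% of all genes in the test of the mean, with medians of 0.16, 0.23 and 0.23. Ifngr2, the signalling chain of the interferon gamma receptor, had log2 ratios of 0.59 and 0.45 for 1 h, 0.76 and 0.66 for 2 h and 0.77 and 0.69 for 4 h. It was far above 0 on all 6 arrays, and its mean of 0.65 ± 0.045 (SE, n = 3) had an adjusted p of 0.00155 by limma. Ifngr1, Ifnar1, Ifnar2 and Il10rb rose by means of 0.31, 0.18, 0.16 and 0.23. The alternative settings were not read for the receptors or for the lists below. With median centring the bright members Ifitm3 and Trim25 had means of 0.086 and -0.0187, in place of 0.244 and 0.114. How far it would move the receptors was not tested.

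Of 10 JAK and STAT genes, including IRF9, 4 rose (Jak1, Jak2, Tyk2 and Stat6, with means of 0.16, 0.22, 0.25 and 0.11) and Stat3 fell by 0.19 on the log2 scale. For Stat3 the adjusted p was 0.0435 by limma, and the dye orientations did not overlap. With treated RNA in Cy5 it stood at -0.24, -0.32 and -0.49 at 1, 2 and 4 h, and in Cy3 at 0.054, 0.031 and -0.20. Of all genes 10.5% were higher and 10.8% lower by the same test of the mean. Irf9 had a mean of -0.075 and did not pass the test. Among the interferon regulatory factors 9 of 10 had a kept probe. By the mean test 2 of them rose, Irf5 among them, and 1, Irf2, fell, beside the same 10.5% and 10.8% of all genes. Irf1, which binds ISRE-like sites and is a known NF-kB target, stood at 2.21, -0.18 and -0.065 at 1, 2 and 4 h. Both arrays of 1 h were at 2.21, and its mean did not pass, with an adjusted p of 0.378 by limma. Irf5 stood at 0.65, 0.60 and 0.091, and Irf7, the factor that amplifies interferon production, had a mean of 0.028.

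Of 12 inhibitors of JAK-STAT signalling 4 rose by the mean test, 1 fell and 2 had falling slopes, beside 10.5%, 10.8% and 0.248% of all genes. Cish, a SOCS-family inhibitor, stood at 1.76, 1.12 and 0.16, with a slope of -0.80 per doubling of time and an adjusted p of 0.00501 by limma. Socs3 stood at 0.72, 0.47 and 0.21, and Socs1, the inhibitor that acts most directly on interferon receptors, at 0.70, 0.17 and 0.0054, with an adjusted p of the mean of 0.162 by limma. Of 18 genes of the pathway that induces interferon 15 had a kept probe. By the mean test 5 rose and none fell, beside the same 10.5% and 10.8% of all genes, and the largest mean was that of Traf3, at 0.48. Myd88, the adaptor that IL-1 and Toll-like receptors share, rose by a mean of 0.24.

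A wider list of 72 other interferon-induced genes was read in the same way. Of these, 48 had a kept probe, 9 rose and 1 fell by limma's test of the mean, and 2 slopes rose and 1 fell. Over all genes the shares were 10.5% and 10.8% for the mean and 0.207% and 0.248% for the slope. Their medians were 0.014, 0.066 and 0.043 at 1, 2 and 4 h. By the size rule of 0.5, 6 were higher at some time and none lower. Cxcl10, a chemokine that interferon gamma and NF-kB both induce, had log2 ratios of 1.60 and 1.65 for 1 h, 1.49 and 1.21 for 2 h and 0.44 and 0.36 for 4 h. It was high on all arrays of 1 h and 2 h and lower on both of 4 h, from an untreated signal that was well above background on 4 of 6 arrays. Plscr1, a phospholipid scramblase that interferon raises, stood at 0.59, 1.05 and 1.41, with a slope of 0.41 per doubling of time and an adjusted p of 0.0086 by limma. Parp14 stood at -0.0063, 0.73 and 0.19 and did not pass the mean test, at an adjusted p of 0.165 by limma. Slfn2, a growth regulator of the Schlafen family, stood at 0.67, 0.59 and 0.30 and rose, and Cd47, the surface protein that holds back phagocytosis, stood at 0.23, 0.45 and 0.67 and rose with a slope of 0.22 per doubling of time.

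**Figure D5:**
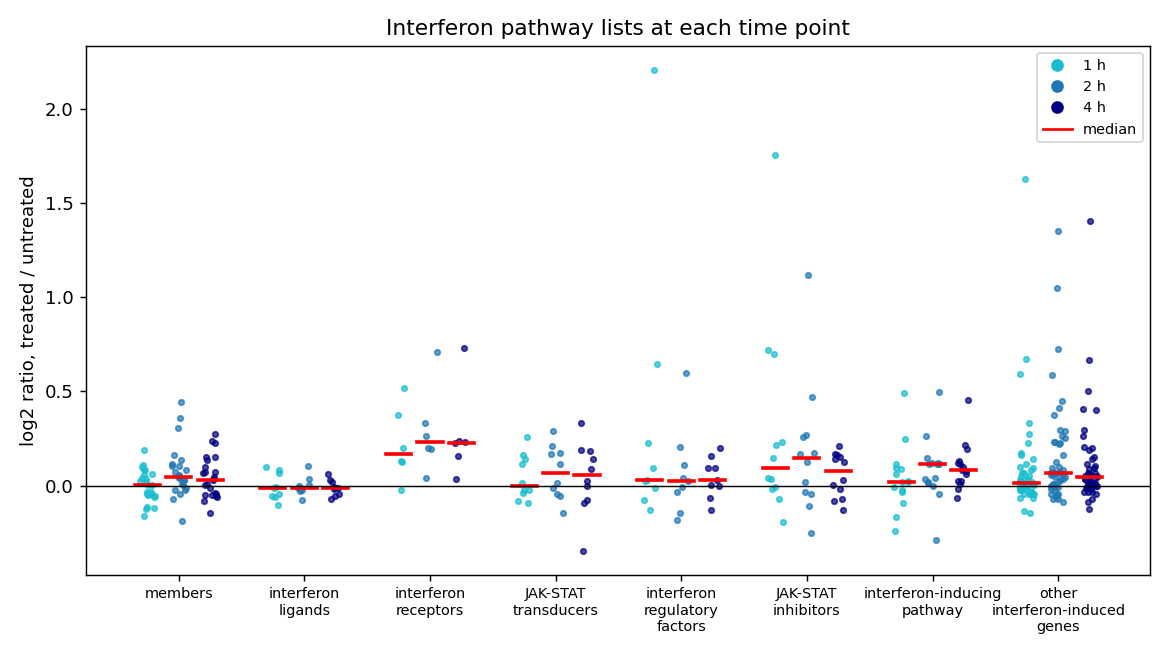
Log2 ratio of treated over untreated for the 24 measured members and for 7 lists of genes of the interferon pathway at 1, 2 and 4 h, a point for each gene and a red line for each median. The receptors have medians of 0.16, 0.23 and 0.23, and those of the members are 0.0032, 0.048 and 0.032.

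The culture carried the markers its label calls for. All 10 fibroblast markers were well above background on every untreated array. So were 8 of 10 leukocyte markers, with untreated log2 signals of 6.02 to 11.61 for the whole list and Siglech on no array, 2 of 5 endothelial, 4 of 5 keratinocyte and 1 of 5 melanocyte markers. The leukocyte markers had log2 ratios of -0.030 to 0.10 at 1 h, -0.032 to 0.21 at 2 h and -0.10 to 0.098 at 4 h, with Csf1r the highest at 2 h. Of the 8 with a kept probe 2 rose and 0 fell by limma's test of the mean, beside 10.5% and 10.8% of all genes. The part of these markers in the members' values was not tested. Up to 14.3% of 314 negative control spots in Cy3 and 2.55% in Cy5 carried the same flag on a single array, so a marker near background may carry it without expression. Among the leukocyte markers Lyz2 and Cd3e, at untreated log2 signals of 11.61 and 8.76, were not near background. Median probe signals were 122 to 128 in Cy3 and 124 to 138 in Cy5, and no spot of a member was saturated. The number of arrays limits the precision of all values here.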

How the data were processed

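Per the file headers, Agilent Feature Extraction read each array, and the deposited intensity columns hold the mean brightness and local background of each spot before correction, beside processed intensities that the scanner software had background-subtracted and dye-normalized. The authors' deposited value table gives ratios on the log2 scale. Each of its columns equals the processed log2 ratio of the other array of its pair within 0.001 for 100% of spots, so columns or scanner files are exchanged within pairs. If the scanner files were, every sign here would turn. In the labelled direction the known IL-1 targets Cxcl1, Nfkbia, Il6 and Icam1 were higher at all 3 times. The medians of its columns were -0.026 and 0.0261 (1 h), -0.0309 and 0.0311 (2 h) and -0.0325 and 0.0283 (4 h). For the array's annotation no genome build is given in the sources used here.

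With limma 3.58.1 in R 4.3.3, mean signals were corrected by normexp (offset 50) and normalized by loess within arrays. Control spots and outlier flags had weight 0, and spots of a probe were averaged. The filter kept 30637 of 41174 probes. RefSeq accessions named 22072 probes through the GRCm38.p6 gene table. Genes were otherwise named as in the files, and members by the files' names. Mean responses and slopes were fitted with lmFit and eBayes and adjusted by Benjamini-Hochberg over 22209 genes (threshold 0.05, two-sided). The scripts were tested on simulated data. Same-numbered arrays share a dye orientation, which is where their pairing comes from, and deviated together (r = 0.855, 0.786 and 0.781), so the orientation was also fitted as a replicate block. Slide or scan date as a block was not run, as each slide held 1 array. Alternatives changed the offset, background, normalization, filter, probe choice, variance prior, orientation or samples.

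All 6 arrays are printed for members past a test or size rule and for the member of largest absolute mean in each role. From the other lists, up to 5 genes past the size rule of 0.5 are given, with members of the lists that passed the test of the mean. The members and lists were chosen with earlier results of these data known. Results for some genes of the pathway lists are not reported here.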

Additional observations from a re-analysis of the deposited data

How the results depend on the processing

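Of the 5 members higher in the mean response by limma, 1 was called with a normexp offset of 16 (7.33% of all genes), 1 with processed signals, whether from the scanner files or from the value table (3.38%), 2 with median centring (5.06%), and 1 each without the 2 h (2.13%) and without the 4 h sample (8.59%). Of lower members, in place of 1, there were 4 with median centring (25.8%) and 0 with the mean of a gene's probes (10.5%). There were also 0 without the 1 h (7.82%) and 0 without the 2 h sample (1.54%). Without the 4 h sample 1 member was lower (9.7%), which was Ifit2 and not Isg20. Leaving out a dye orientation gave 4 to 5 higher members, beside 14.8% to 21.4% of all genes, and 2 to 3 lower ones, beside 16% to 19.2%. They were different members. Without replicate 1 Ifitm3, Ifitm1, Ddx58 and Ifit3 were higher and Ifi27, Rsad2 and Usp18 lower. Without replicate 2 Ifitm3, Trim25, Ifi204, Gbp2 and Adar were higher and Isg20 and Ifit1 lower. Median centring moved the median of all genes to -0.0335, -0.0306 and -0.0308 at 1, 2 and 4 h. The fit with the replicate block took the 6 arrays unaveraged, so both arrays of a time point counted as separate units. It gave 6 members higher and 1 lower, beside 14.9% and 15.1% of all genes. Adar was added and no other member's call of the mean changed. At 2 h 1 member passed 0.5 on the log2 scale with offset 16 and 2 with the processed signals or the value table, and 0 to 1 with an orientation left out. The mean of Trim25 turned to -0.0187 with median centring. Leaving out a dye orientation gave it means of -0.0134 to 0.242, and Isg20 means of -0.224 to 0.0394. The cause of these shifts was not tested. No member passed 1 on the log2 scale under any setting that changed the single-time values. No slope of a member was called under any setting in which it was fitted. Signal over background is low for 12 of 24 members, whose mean log2 signal was under 7.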

Other observations

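Beyond the genes above, the other interferon-induced genes that passed limma's test of the mean were named after their values were seen. Ifi202b, of the same DNA-binding family as Ifi203 and Ifi204, stood at 0.12, 0.29 and 0.50 at 1, 2 and 4 h on the log2 scale, with an adjusted p of the mean of 0.0306. Psmb10, a subunit of the immunoproteasome, stood at 0.097, 0.38 and 0.26, with an adjusted p of 0.0247. Trim21, an intracellular antibody receptor, had a mean of 0.17 and Mov10, an RNA helicase, of 0.12. Tor3a had a mean of 0.16. Tdrd7 was lower, with a mean of -0.11 and an adjusted p of 0.0277. Among the fibroblast markers Dcn, which encodes the matrix proteoglycan decorin, stood at 0.14, 0.44 and 0.80.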
